A study of Mus musculus with 9 samples.

Results

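Pancreatic islets of wild-type C57bl/6 mice that had been held for 48 h with the cytokines IL-1beta, TNF-alfa and IL6 were compared with untreated islets by RNA sequencing of total RNA. The comparison used 6 of the 9 libraries of the study, namely 3 control and 3 inflamed libraries, chosen by their titles and their treatment label. The 3 libraries of islets that received the cytokines together with nanoparticles entered only 1 alternative fit. The sources used here do not give sex, age or number of animals, the culture of the control islets, or whether the replicates of a group came from separate animals, so the p-values reflect only how much these samples vary, and that variation may be technical. The values are whole-number read counts per gene on the GRCm39 genome build.

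Pancreatic islets are small endocrine organs made mostly of insulin-secreting beta cells, with glucagon-secreting alpha cells, somatostatin-secreting delta cells, endothelial cells, stromal cells and resident macrophages. IL-1beta and TNF-alfa act on islet cells largely through the transcription factor NF-kB, and IL6 acts through STAT3. Beta cells are known to be sensitive to this kind of cytokine mixture, which is used in culture to imitate the inflammation of islets in autoimmune diabetes.

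Library totals ran from 19394440 counts (inflamed 2) to 55865759 counts (inflamed 3), with the 3 control libraries between 23064836 and 32101145. Correlations of log2 levels across genes were 0.96 to 0.98 among the control libraries, 0.912 to 0.953 among the inflamed libraries and 0.766 to 0.825 between the groups. The biological coefficient of variation was 24.4% among control and 42.1% among inflamed libraries. Transcripts of the Y-linked genes Ddx3y, Eif2s3y, Uty and Kdm5d were present in all 6 libraries, and the X-inactivation transcript Xist was at 401 counts in control 2 and at 27 counts or fewer in the other 5. Insulin transcripts, which define islet beta cells, made up 28.5 to 29.2% of all counts in control libraries. Because whole islets were sequenced, fewer cells of a type and less RNA per cell cannot be told apart in any of the results.

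Levels are given as counts-per-million values (CPM), each library scaled to its total after trimmed-mean normalization. A gene was called higher or lower where edgeR's quasi-likelihood test gave a Benjamini-Hochberg adjusted p under 0.05 over the 16516 genes tested. Log2 fold changes are inflamed minus control and are followed by their standard errors, with 3 libraries a group throughout. The share of a gene group that rose or fell is to be read against the 21.3% and 22% of all genes tested that were called higher and lower. Genes were named by a fixed rule, except that exceptions to the direction of a list, and the transcription factor, mitochondrial and other genes said to be so beside their values, were named after their values were seen. The sources used here do not give whether counting used strand, so reads of overlapping genes cannot be told apart. Beside those noted with their values, this applies to Il27 (with Apobr), Ifnl2 (Samd4b), Wars (Wdr25), Psmb9 (Tap1), Mrps6 (Slc5a3), Spcs3 (Asb5), Rab3a (Mpv17l2), Atp6v1b2 (Slc18a1), Slc25a23 (Crb3), Pdx1 (Plut), Celf3 (Riiad1), Egfl7 (Agpat2), Pcx (Lrfn4), Ndufs1 (Eef1b2), Ndufb2 (Braf), Tomm70a (Nit2) and Smpd3 (Prmt7), and to Eif6, Syt3, Nkx2-2, Eed, Hes6, Gjd2 and Hsd17b4, which overlap non-coding genes or pseudogenes.

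Inflamed islets differed from untreated islets in a large part of the transcriptome, in both directions. Of the 16516 genes tested, 7159 (43.3%) were called, 3518 (21.3%) higher and 3641 (22%) lower in inflamed islets. At least 2-fold changes were found in 2405 genes that rose (14.6%) and 2680 that fell (16.2%). Changes of at least 10-fold were found in 651 and 522 genes, and of at least 100-fold in 185 and 105 genes. The lowest inflamed library was above the highest control library in 4542 genes (27.5%), and the highest inflamed library was below the lowest control library in 5052 genes (30.6%). Without control replicate 3, 2336 genes were higher, so the count of higher genes rests in part on that library. The median log2 fold change of all genes was -0.02 with trimmed-mean scaling. Scaling by library totals alone moved that median by 0.22 and made 61.9% of the calls higher, against 49.1% in the test as reported, so differences below that size have no firm sign.

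**Figure D1:**
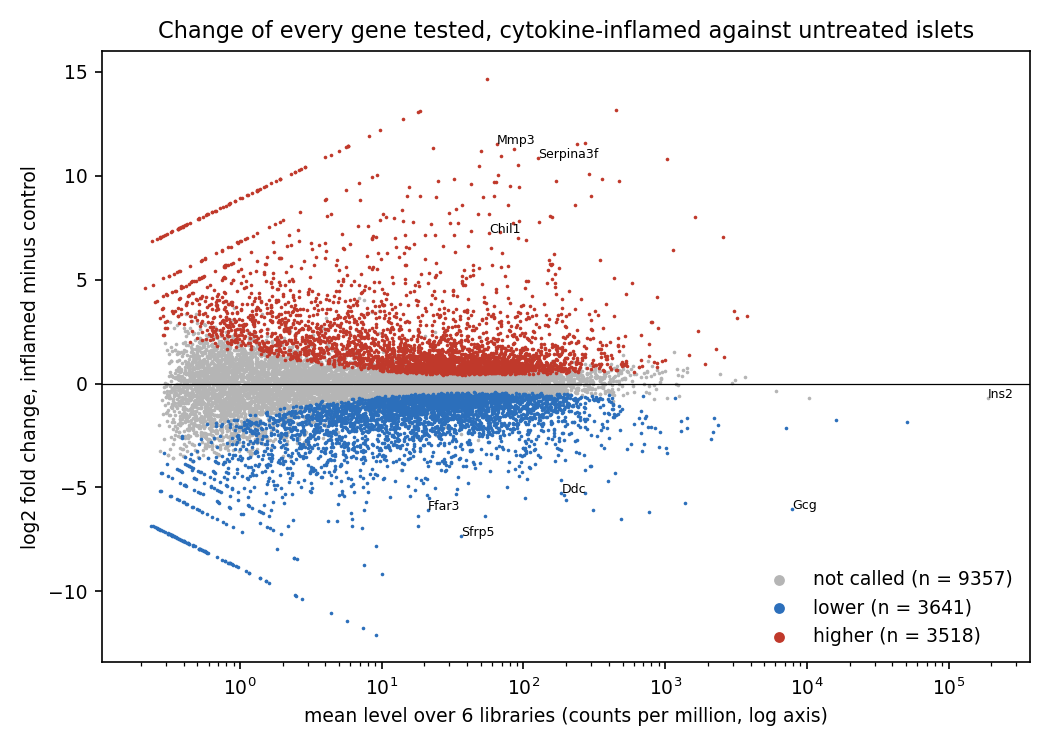
Log2 fold change (inflamed minus control) of each of the 16516 genes tested against its mean level over the 6 libraries in CPM on a log axis; red points were called higher (3518), blue points lower (3641) and grey points were not called. Called genes lie at every level, the straight lines of points at low levels are genes with 0 to a few counts in 1 group, and Ins2, the most abundant gene, is grey.

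The loss of transcript lay in few genes and the gain in many. Between a control and an inflamed library, 32.0% of all counts on average lay in other genes (28.1 to 36.1% over the 9 pairs), against 6.26 to 10% between control libraries and 11.1 to 17.3% between inflamed libraries. Leaving out the insulin genes gave 33.6%. Ranked by size, 8 genes made up 50% of the loss and 322 genes 50% of the gain. The genes that lost most were Ins2, Ins1, Iapp (the islet hormone amylin), Gcg, Chga (chromogranin A, a granule protein), Rn18s-rs5, Scg2 and mt-Cytb. The groups overlapped for Rn18s-rs5, at 0.847, 1.288 and 1.393% of counts in control and 0.738, 1.24 and 0.641% in inflamed libraries. The genes that gained most began with the antigen-presentation genes H2-K1, H2-D1 and B2m, the iron-storage gene Fth1, the iron-siderophore binder Lcn2 and the chaperone Hspa8.

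Insulin transcripts made up 28.8 ± 0.35% (SD, n = 3) of all counts in control and 17.7 ± 4.24% in inflamed libraries. The inflamed libraries held 18.8, 13.0 and 21.2%, all below the control libraries. For this share and for each of the 6 other shares of transcript classes that were compared, the exact two-sided permutation test gave p = 0.1 (adjusted p = 0.1), the smallest that 3 against 3 libraries allow. Ins1, 1 of the 2 mouse insulin genes, stood at 77690, 77590 and 81740 CPM in the control and 28720, 10460 and 26890 CPM in the inflamed libraries and fell by 1.84 ± 0.42 on the log2 scale (edgeR adjusted p = 0.00817). Ins2 stood at 230500, 228900 and 236700 CPM and 150300, 99460 and 183800 CPM with a log2 fold change of -0.68 ± 0.35, which did not pass (edgeR adjusted p = 0.15), although DESeq2 called it (adjusted p = 0.0104). The coding sequences of Ins1 and Ins2 are alike, so the division of reads between them is uncertain. The share of counts in cytosolic ribosomal protein genes was 2.71 ± 0.81% in control and 4.58 ± 0.97% in inflamed libraries, and that of the 20 most abundant genes of each library was 38.9 ± 1.14% and 26.1 ± 3.73%. At equal depth, 21709 ± 495 genes had at least 1 count in control and 19861 ± 2332 in inflamed libraries. The exact two-sided permutation test gave p = 0.4. The control libraries held 21186, 22171 and 21770 such genes. Inflamed 1 was above them all at 22510, and inflamed 2 and 3 were below them all at 18953 and 18120. Inflamed 3 had the largest total but the fewest genes with a count at full depth (18348). Whether this split affects the zeros and large falls of single genes was not tested. At least 10 counts were found for 15253 ± 321 genes in control and 15881 ± 223 in inflamed libraries (exact permutation p = 0.1).

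Leaving out clone-named genes, the 12 largest rises among protein-coding genes that passed the test, averaged 5 CPM or more and had no overlap between groups were those of Cxcl3, Cxcl9, Serpina3g, Ly6i, Olfr56, Ifnl2, Il27, Gbp4, Mmp3, Ubd, Olfr753-ps1 and Cxcl11. Cxcl3, a neutrophil-attracting chemokine at chr5:90933962-90937459, had 0 counts in all 3 control libraries and 58.4, 58.8 and 213 CPM in the inflamed libraries, at least 2790-fold higher against a floor of 3 counts over the control group. Serpina3g, a serine protease inhibitor whose close paralogs Serpina3f and Serpina3i could share its reads, went from 0 counts to 31.1, 34.8 and 46.6 CPM, at least 950-fold higher. The third inflamed library was highest for each of these 2 genes. Ly6i, a Ly6 family surface protein, went from 0 to 31.1, 34 and 43.6 CPM, at least 919-fold higher. Il27, a cytokine subunit, went from 0 to 19.8, 12.3 and 16.5 CPM, at least 410-fold higher. Il27 stayed under 20 CPM in all 3 inflamed libraries. Ifnl2, a type III interferon with a near-identical paralog, went from 0 to 30.2, 13.8 and 14.8 CPM, at least 496-fold higher. Olfr56, annotated as an olfactory receptor, had a rise of at least 721-fold, but its gene model overlaps the interferon-induced genes Ifi47, Tgtp1 and Tgtp2, and reads of overlapping genes cannot be told apart here. Cxcl9, a ligand of the chemokine receptor CXCR3, stood at 0.158, 0.137 and 0 CPM in control and 764, 724 and 1195 CPM in inflamed libraries (log2 fold change 13.17 ± 0.59, edgeR adjusted p = 4.61e-06). Gbp4, an interferon-induced GTPase whose gene overlaps Gbp8 and Gbp9, stood at 0.198, 0.228 and 0.104 CPM and 466, 553 and 606 CPM (11.59 ± 0.34, edgeR adjusted p = 1.13e-06). Ubd, the ubiquitin-like modifier FAT10, stood at 0.395, 0.091 and 0 CPM and 388, 369 and 684 CPM (11.53 ± 0.71, edgeR adjusted p = 1.26e-05). For these 3 genes no control library reached 1 CPM and no inflamed library was under 300 CPM. Cxcl10, another CXCR3 ligand, which overlaps Art3, stood at 0.514, 2.28 and 0.557 CPM in control and 669, 1062 and 1090 CPM in inflamed libraries (9.76 ± 0.66, edgeR adjusted p = 2e-05). Nos2, the inducible nitric oxide synthase, stood at 0, 1.27 and 0.418 and 561, 706 and 484 CPM (10.06 ± 0.82, edgeR adjusted p = 4.79e-05).

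Promoters of 4 strongly risen genes are shown, which had 0 to 12 counts summed over the control libraries. Each sequence is the 250 bases before the start site from the RefSeq window table (build GRCm38.p6, not the build of the counts), 5′ to 3′ on the strand of the gene. They are the first 4 genes in order of fold change, from the 2 sets of most strongly changed genes, whose window holds a match to the NF-kB consensus (kB), the interferon-stimulated response element or the gamma-activated site TTCNNNGAA, on either strand. Capitals mark the matches.
Cxcl3 (chr5:90785851-90786100, forward strand): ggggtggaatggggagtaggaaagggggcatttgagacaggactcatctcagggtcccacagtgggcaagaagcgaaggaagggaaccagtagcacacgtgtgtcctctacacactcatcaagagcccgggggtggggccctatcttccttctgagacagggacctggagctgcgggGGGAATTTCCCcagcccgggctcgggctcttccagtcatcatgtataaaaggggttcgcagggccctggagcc
Serpina3g (chr12:104235897-104236146, forward strand): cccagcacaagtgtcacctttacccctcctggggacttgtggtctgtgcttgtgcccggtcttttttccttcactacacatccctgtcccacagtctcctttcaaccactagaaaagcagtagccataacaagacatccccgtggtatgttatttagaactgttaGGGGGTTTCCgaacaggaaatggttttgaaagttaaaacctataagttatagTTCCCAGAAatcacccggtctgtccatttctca
Ubd (chr17:37193642-37193891, forward strand): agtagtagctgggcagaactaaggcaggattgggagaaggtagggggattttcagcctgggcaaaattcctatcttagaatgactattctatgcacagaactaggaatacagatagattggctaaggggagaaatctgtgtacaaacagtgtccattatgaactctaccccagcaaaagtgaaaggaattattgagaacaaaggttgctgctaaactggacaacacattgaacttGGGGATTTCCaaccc
Hamp (chr7:30944030-30944279, reverse strand): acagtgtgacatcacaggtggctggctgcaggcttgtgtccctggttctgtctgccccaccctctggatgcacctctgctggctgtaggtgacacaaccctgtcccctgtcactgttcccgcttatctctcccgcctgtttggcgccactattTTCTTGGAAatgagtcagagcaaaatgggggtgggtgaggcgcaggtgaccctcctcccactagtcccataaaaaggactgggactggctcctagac
The Cxcl3 window holds overlapping kB matches, which together read GGGAATTTCCC and begin 73 bases before the start. Serpina3g holds a kB match that begins 85 bases and a gamma-activated site that begins 33 bases before the start. The kB match of Ubd begins 15 bases and the gamma-activated site of Hamp 97 bases before the start. Such matches are common: of 27025 RefSeq windows of 300 bases, 8.18% hold the kB consensus, 3.49% the interferon-stimulated response element and 8.47% the gamma-activated site, and a match of either of the last 2 can overlap a match of the other. Windows were found for 79.5% of the protein-coding genes tested, under the 80% set for comparing gene sets, so no comparison of risen with other promoters was made.

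Outside the well-known inflammation and beta cell genes, the 10 largest rises by the same rule at a mean of at least 20 CPM were those of Mmp3, Hamp, Serpina3f, Acod1, Slpi, Ltf, Chil1, Mmp13, Sprr1a and Icosl. Mmp3, stromelysin, a metalloproteinase of the extracellular matrix, stood at 0.0395, 0.091 and 0 CPM in control and 143, 34 and 212 CPM in inflamed libraries, a ratio of pooled counts of 3960 (95% interval 1350 to 19200, counting error only). Mmp13, a collagenase, stood at 0.237, 1.55 and 0.696 and 98.1, 26 and 117 CPM (6.63 ± 0.76, edgeR adjusted p = 0.000265). The second inflamed library was lowest for both proteases. Hamp, the iron-regulating hormone hepcidin, stood at 0.0395, 0 and 0.0696 and 83.4, 72.9 and 145 CPM, a ratio of 2910 (95% interval 996 to 14100, counting error only). Ltf, the iron-binding antimicrobial lactoferrin, stood at 0, 0.592 and 0.0696 and 77.3, 121 and 112 CPM (8.97 ± 0.71, edgeR adjusted p = 4.23e-05). Slpi, secretory leukocyte protease inhibitor, stood at 0, 0.228 and 0.104 and 50.3, 59.8 and 145 CPM (9.59 ± 0.73, edgeR adjusted p = 3.58e-05). For each of these 5 genes the lowest inflamed library was over 10 times the highest control library. Acod1, which makes itaconate from an intermediate of the tricarboxylic acid cycle, stood at 0, 0.41 and 0 and 116, 136 and 146 CPM (10.05 ± 0.72, edgeR adjusted p = 2.56e-05). Chil1, a chitinase-like secreted protein, stood at 0.514, 1.23 and 0.522 and 133, 97.2 and 111 CPM (7.26 ± 0.37, edgeR adjusted p = 5.8e-06). Sprr1a, a cornified-envelope protein also known from injured neurons, stood at 0.079, 2.05 and 1.74 and 95.4, 81.8 and 175 CPM (6.51 ± 0.76, edgeR adjusted p = 0.000295). The rule that chose these 3 genes requires groups without overlap. Icosl, the ligand of the T cell costimulator ICOS, rose from 0.824 ± 0.0897 to 65.4 ± 20.1 CPM (SD, n = 3; edgeR adjusted p = 5.86e-06), the lowest of its inflamed libraries being the third.

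The genes with the largest falls included Edn3, Irx1, Slc38a5, Sfrp5, Fev, Mgp and G6pc2. Edn3, the peptide endothelin 3, stood at 1.94, 14.9 and 17.4 CPM in control libraries and had 0 counts in all 3 inflamed libraries, at least 390-fold lower against a floor of 3 counts over the inflamed group. The first control library was the lowest for Edn3, as it was for Gcg. Irx1, a homeobox gene of alpha cells, stood at 10.7, 15.2 and 34.4 CPM and 0.129, 0 and 0 CPM, a control to inflamed ratio of 715 (95% interval 244 to 3470, counting error only). Slc38a5, an amino acid transporter of alpha cells, stood at 4.27, 19.2 and 21.3 and 0.0863, 0.0436 and 0 CPM, a ratio of 513 (95% interval 175 to 2490, counting error only). Sfrp5, a secreted WNT inhibitor, stood at 35.6, 78.5 and 102 and 0.259, 0.262 and 0.657 CPM (-7.35 ± 0.54, edgeR adjusted p = 3.13e-05). Groups without overlap were a condition for choosing these genes, so their separation is not a separate result. Col6a6, a collagen VI chain, stood at 97.6, 117 and 103 and 1.77, 2.44 and 0 CPM (-6.38 ± 1.11, edgeR adjusted p = 0.00371). Mgp, an inhibitor of matrix calcification, fell from 35.9 ± 12.8 to 0.377 ± 0.511 CPM, a call (edgeR adjusted p = 0.000713) that was lost in the fit of all 9 libraries (adjusted p = 0.0549). Ffar3, a short-chain fatty acid receptor, stood at 30.6, 52.5 and 41.7 and 0.604, 0.567 and 0.621 CPM (-6.10 ± 0.28, edgeR adjusted p = 4.68e-06), with the 3 inflamed libraries almost equal. Th and Ddc encode successive enzymes of dopamine synthesis. Th fell by 5.35 ± 0.38 on the log2 scale, from 40.5 ± 4.5 to 0.959 ± 0.492 CPM (edgeR adjusted p = 2.63e-05). Ddc fell by 5.29 ± 0.25, from 360.2 ± 82.4 to 9.22 ± 1.26 CPM (edgeR adjusted p = 4.68e-06). Bhlha15 (Mist1), a regulator of secretory cells, fell from 111 ± 37 to 2.67 ± 2.32 CPM (-5.43 ± 0.66, edgeR adjusted p = 0.000357). These 3 genes kept a low level in every inflamed library. G6pc2, the glucose-6-phosphatase of beta cells, stood at 735, 1336 and 844 and 14.4, 7.84 and 9.12 CPM (-6.54 ± 0.39, edgeR adjusted p = 1.21e-05).

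Fev, the ETS family factor Pet1 known from serotonin neurons and beta cells, stood at 13.4, 9.69 and 19.9 CPM in control and 0.431, 0 and 0 CPM in inflamed libraries (-6.93 ± 1.05, edgeR adjusted p = 0.0011). Its promoter is shown because, among the most strongly fallen genes considered, it was the 1 whose 250 bases held a match to the homeodomain A box, which reads TAATTA and is in capitals, or to the MAF half-site, which reads TGCTGAC. On either strand, 5.31% of the 27025 windows of 300 bases hold the A box and 4.58% the half-site.
Fev (chr1:74885409-74885658, reverse strand): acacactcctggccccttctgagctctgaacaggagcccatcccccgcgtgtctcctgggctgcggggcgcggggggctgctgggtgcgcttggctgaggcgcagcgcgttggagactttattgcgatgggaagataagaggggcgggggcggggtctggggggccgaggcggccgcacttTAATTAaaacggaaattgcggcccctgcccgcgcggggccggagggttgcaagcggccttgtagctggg

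**Figure D2:**
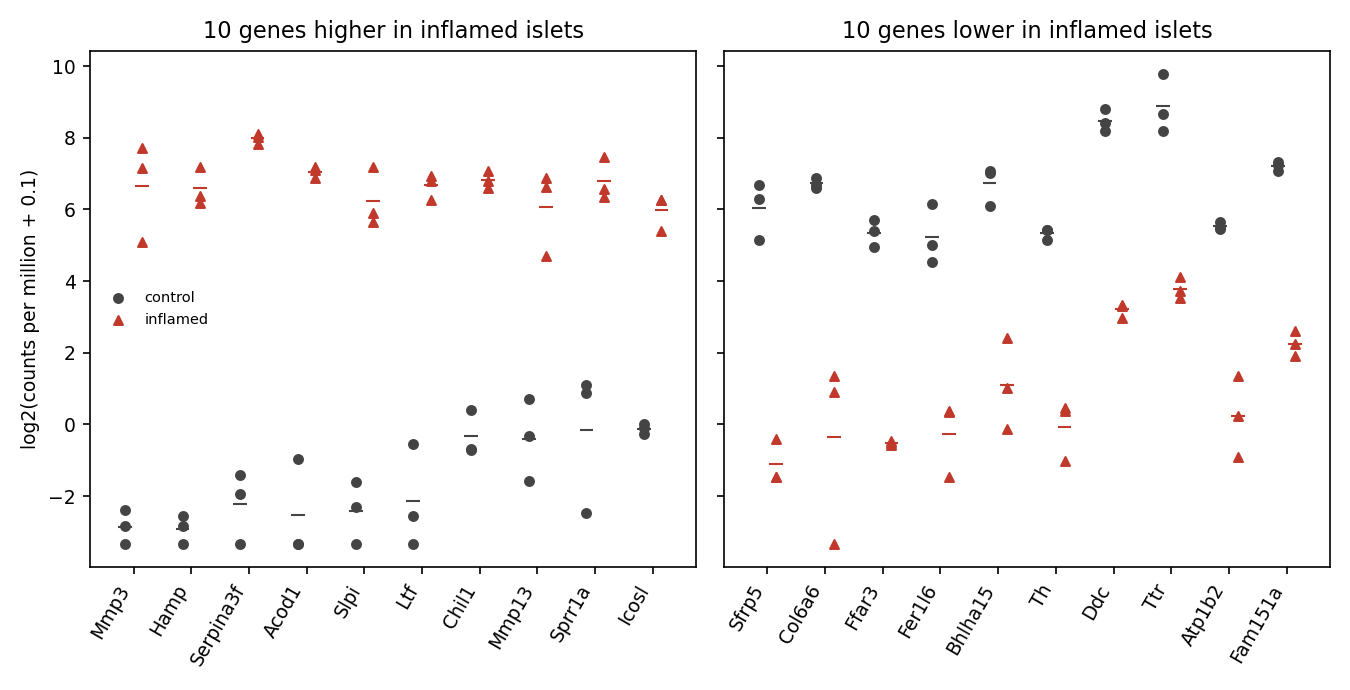
Level in each library, as log2(CPM + 0.1), of the 10 genes that rose most (left) and the 10 that fell most (right) among protein-coding genes averaging 20 CPM or more outside the well-known inflammation and beta cell genes; grey circles are the 3 control libraries, red triangles the 3 inflamed libraries and short lines the group means of these log values. Only called genes whose groups do not overlap were eligible, so the symbols of the 2 groups are separate by choice. The control libraries lie near the bottom of the scale for Mmp3 and Hamp.

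Levels of some abundant genes hardly differed. Of the 3435 genes averaging 20 CPM or more that were not called, 81.1% had a 95% interval of the fold change that lay within 2-fold in either direction. Ptbp3, an RNA-binding protein, stood at 102, 111 and 107 CPM in control and 118, 105 and 112 CPM in inflamed libraries, with a log2 fold change of 0.06 (95% interval -0.26 to 0.39). Paip2, a regulator of poly(A)-binding protein, stood at 122, 122 and 114 and 116, 129.5 and 128 CPM (0.06, -0.27 to 0.40). Ranbp3, a nuclear export cofactor, stood at 133, 133 and 129 and 137, 117 and 120.1 CPM (-0.08, -0.42 to 0.26). The groups overlapped for these 3 genes, and with library totals as the only scaling their fold changes were 0.28, 0.29 and 0.14.

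Genes of protein synthesis, folding and breakdown rose more often than they fell, and genes of protein export fell more often than they rose. Of 23 heat shock response genes tested, 17 (73.9%) rose against 21.3% of all genes, and the median log2 fold change was 1.03. Hsp90aa1, the stress-inducible cytosolic HSP90, stood at 254, 203 and 235 CPM in control and 612, 604 and 582 CPM in inflamed libraries (1.38 ± 0.18, edgeR adjusted p = 0.000577). Hsph1, a nucleotide exchange factor of HSP70, stood at 58.7, 76.2 and 68.5 and 209.9, 156 and 147 CPM (1.33 ± 0.20, edgeR adjusted p = 0.000947). Hsf2, 1 of the heat shock transcription factors, was the exception and fell by 0.84 ± 0.29 (edgeR adjusted p = 0.0451), a call lost when any 1 library other than inflamed 1 was left out. Of 23 aminoacyl-tRNA synthetases and their partners, 14 (60.9%) rose and the other 9 were not called, with a median of 0.56. Kars, the lysyl enzyme, stood at 109, 96.8 and 116 and 482, 480.0 and 486 CPM (2.17 ± 0.18, edgeR adjusted p = 4.66e-05). Rars, the arginyl enzyme, rose by 1.63 ± 0.16 (edgeR adjusted p = 0.00012) and Wars, the tryptophanyl enzyme, by 1.65 ± 0.19 (edgeR adjusted p = 0.000293). Without control replicate 1 or 3, the count of risen members was 9 or 8. Of 53 translation initiation factors, 27 rose and 4 fell, with a median of 0.64; 16 rose without control replicate 3. Eif6, which keeps the large ribosomal subunit apart from the small one, rose by 2.19 ± 0.21 (edgeR adjusted p = 9.97e-05). Among the 4 that fell was Eif4ebp2, a repressor of cap-dependent translation, at -1.45 ± 0.19 (edgeR adjusted p = 0.000563), and 1 member fell without control replicate 2 or 3 or inflamed replicate 3 and 2 without control or inflamed replicate 1.

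Of 49 proteasome genes, 31 (63.3%) rose and 1, Psmd6, fell by 0.63 ± 0.18 (edgeR adjusted p = 0.0207), a call lost without control replicate 2 or 3. Subunits of the immunoproteasome were among those that rose. Psmb9 stood at 21.9, 11.7 and 14.5 CPM in control and 361, 269 and 332 CPM in inflamed libraries (4.32 ± 0.28, edgeR adjusted p = 1.77e-05) and Psmb8 rose by 4.47 ± 0.32 (edgeR adjusted p = 2.51e-05). Constitutive subunits of the regulatory particle moved too, as Psmd8 and Psmd4, named after their values were seen, rose by 1.93 ± 0.18 and 1.57 ± 0.17. Of 80 cytosolic ribosomal protein genes, 11 (13.8%) rose, below the 21.3% of all genes, although the median was 0.57. The count was 41 with library totals or with the replicate number as a block, 26 by DESeq2, 22 without inflamed replicate 2 and 5 to 7 without control replicate 2 or 3 or inflamed replicate 1 or 3. Of 77 mitochondrial ribosomal protein genes, 20 (26%) rose, near the 21.3% of all genes, and 2 (2.6%) fell against 22%, with a median of 0.34. Those that rose numbered 35 with library totals, and 12 or 13 without control replicate 2 or 3 or inflamed replicate 3. Mrps6, of the small mitochondrial subunit, rose by 1.80 ± 0.25 (edgeR adjusted p = 0.000785).

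Entry into the secretory pathway went the other way. Of 33 genes of signal peptide cleavage, translocation and N-glycosylation, 12 (36.4%) fell against 22% of all genes and the other 21 were not called, with a median of -0.36. Spcs3, a subunit of signal peptidase, stood at 144, 222 and 187 CPM in control and 36.4, 38 and 42.7 CPM in inflamed libraries (-2.24 ± 0.20, edgeR adjusted p = 7.81e-05). Ddost and Ostc, subunits of the oligosaccharyltransferase, fell by 1.46 ± 0.20 (edgeR adjusted p = 0.000583) and 1.36 ± 0.19 (edgeR adjusted p = 0.000678). Of 45 genes of the vesicle coats and cargo receptors between endoplasmic reticulum and Golgi, 15 (33.3%) fell and 2 rose. The cargo lectins Lman1 and Lman2 fell by 1.79 ± 0.21 (edgeR adjusted p = 0.00027) and 1.58 ± 0.20 (edgeR adjusted p = 0.000505). The 2 that rose were Sec24a, a COPII coat protein, at 0.84 ± 0.15 (edgeR adjusted p = 0.0029) and Mia2, a large-cargo receptor, at 0.69 ± 0.19 (edgeR adjusted p = 0.0172), and 6 members rose with library totals as the only scaling. Beta cell markers moved with these genes: 21 of 22 were called lower, with a median of -2.52, and their part in the result was not tested.

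**Figure D3:**
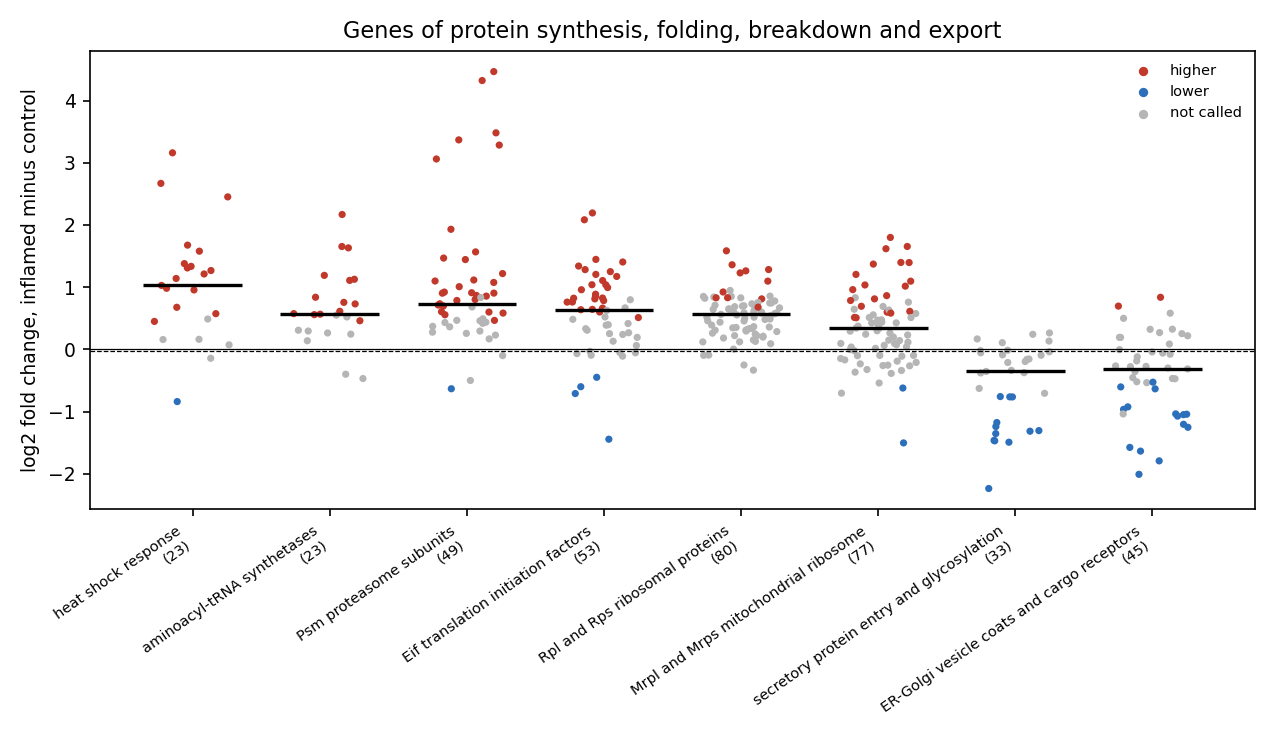
Log2 fold change (inflamed minus control) of each tested member of 8 groups of genes, with the number tested in brackets; red was called higher, blue lower and grey not called, the bars are group medians and the dashed line is the median of all genes. Medians lie above 0 for heat shock genes (1.03), tRNA synthetases, proteasome, initiation factors and both kinds of ribosomal proteins, and below 0 for secretory entry (-0.36) and vesicle coats (-0.32).

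Rab3a and Rab27a are small GTPases of secretory granules. Rab3a stood at 190.3, 168 and 194 CPM in control and 25.5, 25.7 and 23.8 CPM in inflamed libraries (-2.88 ± 0.16, edgeR adjusted p = 7.36e-06). Rab27a stood at 150.2, 219.7 and 168 and 23.4, 27.3 and 28.9 CPM (-2.76 ± 0.20, edgeR adjusted p = 2.88e-05). Rab32, a GTPase of lysosome-related organelles and phagosomes, went the other way, from 1.38, 1.82 and 0.836 to 14.4, 22.1 and 19.9 CPM (3.81 ± 0.35, edgeR adjusted p = 8.21e-05). Over all 54 Rab GTPases, 16 rose and 15 fell, and 10 rose without control replicate 3. Of 14 synaptotagmins, which couple calcium to membrane fusion or traffic, 6 (42.9%) fell. Syt13 fell by 3.24 ± 0.22 (edgeR adjusted p = 2.22e-05), Syt3 fell by 4.92 ± 0.39 (edgeR adjusted p = 4.22e-05) and Syt5 fell by 2.18 ± 0.32 (edgeR adjusted p = 0.000993), the last not in the fit of all 9 libraries (adjusted p = 0.0506). Of 20 subunits of the vacuolar proton pump, 6 rose and 1 fell. Atp6v1b2 and Atp6v1a, subunits of its cytosolic part, rose by 1.31 ± 0.20 (edgeR adjusted p = 0.00108) and 0.99 ± 0.16 (edgeR adjusted p = 0.00146). The 1 that fell was Atp6v1g2, a neuronal-type subunit, at -1.91 ± 0.37 (edgeR adjusted p = 0.00376), and 10 rose with library totals as the only scaling.

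Of 56 potassium channel (Kcn) genes tested, 30 (53.6%) fell against 22% of all genes and 5 rose, with a median of -1.53. Kcnk16 (TALK-1), a background potassium channel of beta cells, stood at 336, 377 and 423 CPM in control and 11.9, 7.5 and 8.25 CPM in inflamed libraries (-5.36 ± 0.26, edgeR adjusted p = 4.68e-06). Kcnab3, an auxiliary subunit whose gene overlaps its antisense transcript Kcnab3os, stood at 52.8, 69.5 and 72 and 2.54, 1.35 and 1.06 CPM (-5.33 ± 0.35, edgeR adjusted p = 1.78e-05). The 5 that rose were Kcnmb1, Kcnn4, Kcne4, Kcnj14 and Kcng3, at 2.41, 1.6, 3.78, 3.25 and 2.15 on the log2 scale. Without any 1 control library 1 to 3 members rose, and 8 members rose without inflamed replicate 3.

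Of 249 solute carriers, 77 (30.9%) fell against 22% of all genes, and 50 (20.1%) rose, near the 21.3% of all genes. Slc16a12, a monocarboxylate transporter, stood at 72.4, 89.1 and 96.2 CPM in control and 5.57, 5.67 and 4.42 CPM in inflamed libraries (-4.05 ± 0.21, edgeR adjusted p = 5.8e-06). Slc22a17, a receptor for lipocalin, stood at 165, 179 and 194 and 15, 14.1 and 10.6 CPM (-3.76 ± 0.20, edgeR adjusted p = 6.54e-06). Slc25a23, a calcium-regulated mitochondrial carrier, fell by 3.49 ± 0.19 (edgeR adjusted p = 6.94e-06). Of 39 ABC transporters, 9 rose and 11 fell. The multidrug exporter Abcb1a, whose paralog Abcb1b is near-identical in parts, rose by 4.77 ± 0.49 (edgeR adjusted p = 0.000163). Abcd3, the peroxisomal fatty acid transporter, fell by 2.18 ± 0.18 (edgeR adjusted p = 4.66e-05).

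Genes of the primary cilium, the sensory antenna of endocrine cells, fell more often than they rose. Of 35 tested, 16 (45.7%) fell and 1 rose, with a median of -0.57. Dync2h1, the motor of retrograde ciliary transport, stood at 24.3, 36 and 24.6 CPM in control and 5.57, 5.36 and 3.55 CPM in inflamed libraries (-2.56 ± 0.26, edgeR adjusted p = 0.000163). Cc2d2a, of the ciliary transition zone, stood at 11.5, 13 and 9.64 and 1.25, 1.48 and 0.444 CPM (-3.46 ± 0.46, edgeR adjusted p = 0.000565). Ift81, of the transport complex, fell by 1.56 ± 0.20 (edgeR adjusted p = 0.000493). Kif3a, the anterograde motor, was the 1 that rose, at 0.74 ± 0.19 (edgeR adjusted p = 0.0126), and did not pass without control replicate 3. Within the tubulins, Tubb4a fell by 2.66 ± 0.33 (edgeR adjusted p = 0.000378) while Tubb5 and Tuba1c rose by 1.69 ± 0.22 (edgeR adjusted p = 0.000453) and 1.76 ± 0.24 (edgeR adjusted p = 0.000691). Tubulin genes are alike in sequence, so their counts are uncertain.

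Transcription factors as a whole did not stand out: 210 of 1004 (20.9%) rose and 220 (21.9%) fell, near the 21.3% and 22% of all genes. The families given in the deposited table went different ways. Homeobox genes fell in 27 of 51 cases (52.9%) and rose in 6, with a median of -0.96. Pdx1, the master regulator of beta cells, stood at 192, 222 and 205 CPM in control and 12.1, 15 and 11.4 CPM in inflamed libraries (-4.0 ± 0.19, edgeR adjusted p = 4.68e-06). Nkx2-2, of endocrine differentiation, stood at 304, 314 and 343 and 41.3, 36.9 and 30.6 CPM (-3.15 ± 0.19, edgeR adjusted p = 1.21e-05). Six5 and Hopx, named after their values were seen, fell by 3.95 (edgeR adjusted p = 4.66e-05) and 2.54 (edgeR adjusted p = 9.81e-05). Against that direction, Tgif1, a repressor of TGF-beta signalling, rose from 1.54, 3.05 and 2.47 to 58.9, 52.3 and 103 CPM (4.92 ± 0.37, edgeR adjusted p = 3.26e-05). Basic leucine zipper factors rose in 25 of 46 cases (54.3%) and fell in 7, with a median of 0.97. Atf3, a stress-induced factor, stood at 5.77, 5.19 and 5.85 CPM in control and 139, 139 and 165 CPM in inflamed libraries (4.72 ± 0.18, edgeR adjusted p = 3.56e-06). Batf2, an interferon-induced partner of JUN proteins, rose by 7.79 ± 0.49 (edgeR adjusted p = 1.36e-05) and Creb3, a membrane-bound factor, by 2.27 ± 0.17 (edgeR adjusted p = 3.5e-05). The relatives of Creb3, Creb3l2 and Creb3l1, fell by 2.31 (edgeR adjusted p = 0.000167) and 1.54 (edgeR adjusted p = 0.000569). Mafa, the beta cell factor of this family, stood at 2413, 2915 and 2793 and 65.1, 48.8 and 39.8 CPM (-5.72 ± 0.31, edgeR adjusted p = 6.8e-06). Tgif1, Atf3, Batf2, Creb3, Creb3l1 and Creb3l2 were named after their values were seen. ETS factors rose in 10 of 23 cases (43.5%; 6 without control replicate 3) and fell in 3, Etv1, Fev and Elk1. In the zf-C2H2 family, 73 of 457 rose and 73 fell (16% each), below the share of all genes.

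**Figure D4:**
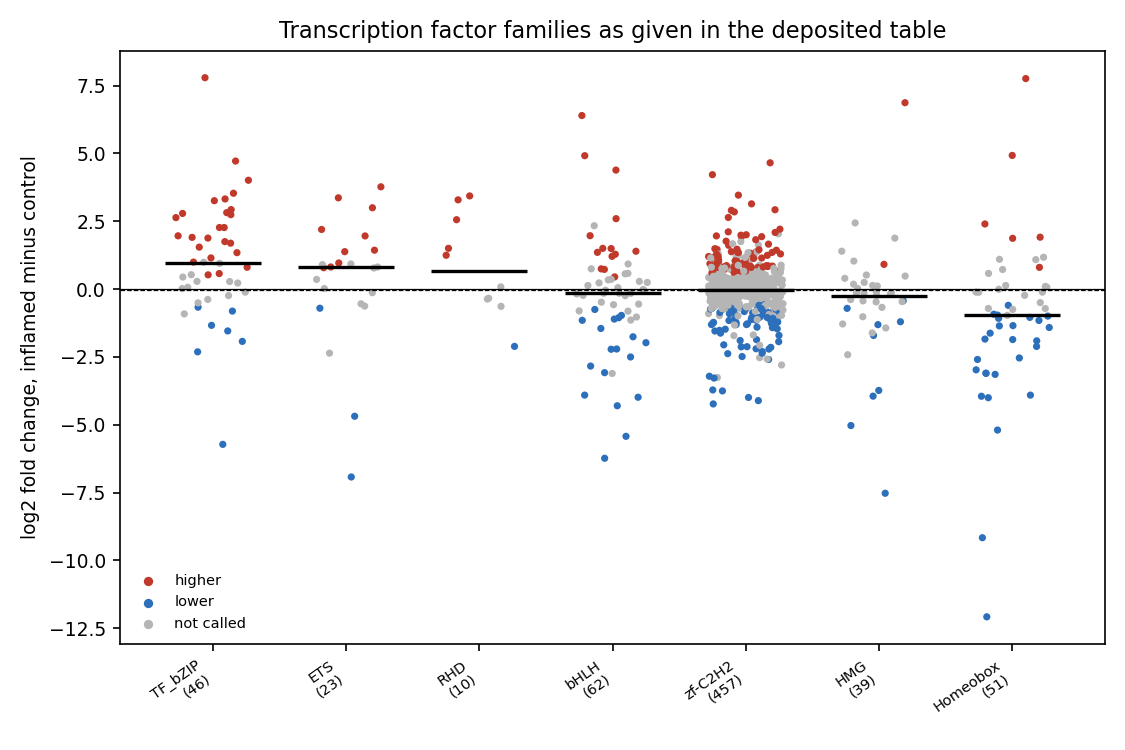
Log2 fold change (inflamed minus control) of each tested member of 7 transcription factor families as named in the deposited table, with the number tested in brackets; red was called higher, blue lower and grey not called, the bars are family medians and the dashed line is the median of all genes. The bZIP median (0.97) lies above and the Homeobox median (-0.96) below the other families drawn.

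Nuclear receptors fell in 13 of 31 cases (41.9%) and rose in 4, but this direction depended on scaling, since library totals as the only scaling gave 7 lower and 8 higher. Hnf4a, a regulator of hepatocyte and beta cell genes, fell by 2.71 ± 0.29 (edgeR adjusted p = 0.000204) and Rora, an activator of the clock, rose by 1.21 ± 0.18 (edgeR adjusted p = 0.000973). The count that fell was 8 without control replicate 1 or 3. Of 22 circadian clock genes, 7 rose and 4 fell. Nfil3, a repressor of output genes, rose by 1.34 ± 0.16 (edgeR adjusted p = 0.000325). Per3, a period protein whose gene overlaps Camta1, fell by 1.96 ± 0.25 (edgeR adjusted p = 0.000445). Per1, named after its value was seen, rose by 1.24 ± 0.21 (edgeR adjusted p = 0.00213), so the period genes did not move together.

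Splicing and chromatin regulators fell more often than they rose. Of 35 splicing regulators, 15 (42.9%) fell and 6 rose; 9 fell without control replicate 3 and 8 with library totals as the only scaling. Nova2, Celf3 and Srrm3 are neuronal-type regulators shared with endocrine cells. Nova2 stood at 30.6, 34 and 38.5 CPM in control and 6.17, 3.27 and 3.92 CPM in inflamed libraries (-2.95 ± 0.27, edgeR adjusted p = 8.21e-05). Celf3 stood at 425, 479 and 477 and 90.8, 125 and 83 CPM (-2.21 ± 0.21, edgeR adjusted p = 0.000118), and Srrm3, an activator of microexons, fell by 1.51 ± 0.18 (edgeR adjusted p = 0.000371). Of 37 chromatin modifiers, 11 (29.7%) fell and 2 rose; 7 fell without control replicate 3. Hdac6, a cytoplasmic deacetylase of tubulin, stood at 301, 348 and 270.2 and 42.7, 40.8 and 24 CPM (-3.10 ± 0.26, edgeR adjusted p = 5.72e-05). The mitochondrial sirtuin Sirt4 fell by 1.6 ± 0.22 (edgeR adjusted p = 0.000746). The 2 that rose were Eed, a core subunit of Polycomb repressive complex 2, at 1.21 ± 0.16 (edgeR adjusted p = 0.000514), and Sirt1, a nuclear deacetylase, at 0.87 ± 0.23 (edgeR adjusted p = 0.0142).

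Imprinted genes fell in 11 of 29 cases (37.9%) and rose in 1, with a median of -1.23. Usp29 and Peg3, neighbours that are expressed from the paternal allele, fell together. Usp29 stood at 37.1, 40.0 and 38.9 CPM in control and 2.85, 3.18 and 2.5 CPM in inflamed libraries (-3.77 ± 0.19, edgeR adjusted p = 5.53e-06). Peg3 stood at 546, 691 and 504 and 139, 141 and 96 CPM (-2.21 ± 0.24, edgeR adjusted p = 0.000185). The maternally expressed RNAs Meg3, Rian and Mirg of the Dlk1-Dio3 region, of which Meg3 and Mirg were named after their values were seen, fell by 1.82 (edgeR adjusted p = 0.00185), 2.75 (edgeR adjusted p = 0.00019) and 2.96 (edgeR adjusted p = 0.000736). Plagl1, a zinc finger factor linked to transient neonatal diabetes, was the 1 that rose, at 1.98 ± 0.30 (edgeR adjusted p = 0.00109). Ddc, given above, is also on this list.

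Of 1632 long non-coding RNA genes, 362 (22.2%) fell, near the 22% of all genes, and 191 (11.7%) rose, below the 21.3% of all genes, with a median of -0.46; 224 fell without control replicate 3. AW112010, an RNA known from interferon-stimulated and inflamed cells, stood at 0.711, 1.05 and 0.627 CPM in control and 148, 121 and 230.2 CPM in inflamed libraries (7.72 ± 0.36, edgeR adjusted p = 4.68e-06). 9330175E14Rik stood at 0.198, 0.182 and 0.209 and 26, 32.6 and 28.6 CPM (7.17 ± 0.26, edgeR adjusted p = 2.94e-06), but it overlaps Nlrc5, the activator of MHC class I genes. Gm34759 stood at 50.8, 81.1 and 66.8 and 2.03, 2.92 and 1.06 CPM (-5.09 ± 0.39, edgeR adjusted p = 3.63e-05), and Gm13115 at 10.3, 19.6 and 15.5 and 0.216, 0.218 and 0.373 CPM (-5.72 ± 0.40, edgeR adjusted p = 2.45e-05). Hosts of small nucleolar RNAs did not move as one: of those in the list, Snhg17 rose by 1.90 ± 0.16 (edgeR adjusted p = 5.85e-05) while Snhg11 fell by 2.42 ± 0.23 (edgeR adjusted p = 0.000101). Of 811 pseudogenes, 110 (13.6%) rose and 64 (7.89%) fell, both below the 21.3% and 22% of all genes, with 64 to 69 higher without control replicate 2 or 3, and reads of their parent genes may be counted in them.

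Transcripts encoded in mitochondria did not move as one. Of 21 tested, 15 fell and 2 rose. The 2 that rose were the ribosomal RNAs mt-Rnr1 (1.98 ± 0.27, edgeR adjusted p = 0.000587) and mt-Rnr2 (1.67 ± 0.21, edgeR adjusted p = 0.000394). Whether library preparation affected the counts of ribosomal RNAs was not tested. mt-Cytb stood at 3064, 4131 and 3687 CPM in control and 565, 639.9 and 954 CPM in inflamed libraries (-2.33 ± 0.29, edgeR adjusted p = 0.000395). mt-Co1, a cytochrome oxidase subunit from the same precursor strand, stood at 6660, 7222 and 6736 and 4169, 5834 and 5838 CPM and was not called (-0.38 ± 0.26, edgeR adjusted p = 0.264). The 4 mitochondrial genes given with values were chosen after their values were seen. On chromosome X, 156 of 520 genes (30%) fell and 76 (14.6%) rose, with a median of -0.28. With 1 control library left out, 131, 124 and 112 fell without control replicate 1, 2 and 3, of which control 2 was the library with 401 Xist counts.

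NOTCH signalling genes fell in 12 of 23 cases (52.2%) and rose in 4, with a median of -1.11. Among ligands, Jag2 stood at 91.7, 86.2 and 93.3 CPM in control and 11.9, 9.46 and 9.55 CPM in inflamed libraries (-3.14 ± 0.17, edgeR adjusted p = 7.93e-06). Among receptors, Notch2 went the other way, from 1.26, 1.87 and 1.74 to 11.9, 14.4 and 11.6 CPM (2.96 ± 0.28, edgeR adjusted p = 0.000101), while Notch1, Notch3 and Notch4, named after their values were seen, fell by 1.70, 3.11 and 2.01. Hes6, a target family member, fell by 2.21 ± 0.19 (edgeR adjusted p = 5.93e-05). Endothelial markers moved with these genes, since 10 of 14 fell with a median of -3.12, and their summed level was 46.0 to 119.5 CPM in control and 23.8 to 57.8 CPM in inflamed libraries. Their part in the result was not tested. Esam and Egfl7, which had the smallest adjusted p among them, had falls smaller than that median, at -2.04 ± 0.34 (edgeR adjusted p = 0.00195) and -2.41 ± 0.45 (edgeR adjusted p = 0.00317), and 3 markers fell without control replicate 2 and 5 without inflamed replicate 1.

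Among WNT genes 8 of 28 (28.6%) fell against 22% of all genes, and 3 (10.7%) rose, and Sfrp5, given above, was among those that fell. The receptor Fzd8 fell by 1.92 ± 0.22 (edgeR adjusted p = 0.000238) and the ligand Wnt4 by 1.79 ± 0.28 (edgeR adjusted p = 0.00124). Genes of the TGF-beta, BMP and activin pathways split, with 10 of 40 higher and 12 lower. Inha, the inhibin alpha subunit, stood at 88.5, 108 and 103 CPM in control and 10.8, 10.8 and 6.98 CPM in inflamed libraries (-3.40 ± 0.23, edgeR adjusted p = 1.84e-05). Chrd, a BMP antagonist whose gene overlaps Thpo, fell by 3.83 ± 0.35 (edgeR adjusted p = 8.66e-05) and Skil, a repressor of SMAD proteins, rose by 2.09 ± 0.20 (edgeR adjusted p = 0.000107). Of 31 growth factor genes, 8 rose and 8 fell, with 5 lower without control replicate 3. Areg, a ligand of the EGF receptor, stood at 1.7, 1.64 and 2.89 and 20.3, 11.4 and 24.6 CPM (3.17 ± 0.37, edgeR adjusted p = 0.000306). Ereg, another EGF receptor ligand, rose by 7.0 ± 0.96 (edgeR adjusted p = 0.000685) but was not called by limma-voom (adjusted p = 0.11).

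Axon guidance genes fell in 16 of 49 cases (32.7%) and rose in 8, though their median was 0.02; 10 fell without control replicate 2 and 5 rose without control replicate 3. Nrp2, a semaphorin and VEGF coreceptor, rose by 2.87 ± 0.26 (edgeR adjusted p = 8.63e-05), while the semaphorins Sema6b and Sema4g fell by 3.32 ± 0.33 (edgeR adjusted p = 0.000139) and 2.31 ± 0.33 (edgeR adjusted p = 0.000878). Of 31 genes of epithelial junctions, 8 rose and 6 fell; 5 rose without control replicate 3 and 13 with library totals as the only scaling. Gjd2 (connexin 36), which joins beta cells electrically, stood at 184, 198 and 148 CPM in control and 7.85, 10.1 and 6.46 CPM in inflamed libraries (-4.44 ± 0.24, edgeR adjusted p = 6.8e-06). F11r, a tight junction protein, was among those that rose, by 1.74 ± 0.15 (edgeR adjusted p = 5.7e-05). Receptor tyrosine phosphatases fell in 9 of 16 cases (56.2%) and rose in 3, and Ptpru fell by 2.22 ± 0.22 (edgeR adjusted p = 0.000147). Tetraspanins fell in 9 of 17 cases (52.9%), and Tspan8 fell by 2.75 ± 0.32 (edgeR adjusted p = 0.000301).

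Enzymes of arginine, polyamine and tetrahydrobiopterin metabolism split, with 7 of 23 higher (30.4%) and 10 lower (43.5%). Smox, spermine oxidase, stood at 19.8, 14.5 and 20.6 CPM in control and 208, 145 and 227 CPM in inflamed libraries (3.40 ± 0.24, edgeR adjusted p = 2.53e-05). Sat1, the acetyltransferase that starts polyamine breakdown, stood at 39.4, 27.9 and 29 and 192, 146 and 180.0 CPM (2.43 ± 0.20, edgeR adjusted p = 5.59e-05). Odc1, which starts polyamine synthesis, stood at 69.7, 67.3 and 81.8 and 245, 248 and 237 CPM (1.74 ± 0.16, edgeR adjusted p = 9.48e-05). The synthases of the next steps, Srm and Sms, and the enzymes of tetrahydrobiopterin synthesis and recycling Pts, Pcbd1 and Qdpr, named after their values were seen, fell by 0.90, 1.01, 1.68, 1.61 and 1.29.

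In NAD and tryptophan metabolism, 6 of 18 genes rose and 3 fell. Nampt, the rate-limiting enzyme of NAD salvage, stood at 35.8, 27.1 and 32.3 CPM in control and 239, 294 and 283 CPM in inflamed libraries (3.10 ± 0.19, edgeR adjusted p = 1.26e-05). Bst1, an enzyme that uses NAD, and whose gene overlaps Fbxl5, stood at 0.079, 0.091 and 0.0348 and 6.13, 12.7 and 12.6 CPM (7.22 ± 0.54, edgeR adjusted p = 3.28e-05). Among PARP genes, whose products also use NAD, and the Parp9 partner Dtx3l counted with them, 9 of 15 (60%) rose and 3 fell. The median was 1.38. Parp14 stood at 10.8, 13.6 and 11.1 and 260.5, 222 and 169.9 CPM (4.20 ± 0.23, edgeR adjusted p = 6.94e-06). Dtx3l and Parp9, partners that share a promoter region and overlap, rose by 3.74 ± 0.22 (edgeR adjusted p = 1.03e-05) and 2.92 ± 0.21 (edgeR adjusted p = 2.53e-05). Parp1, Parp6 and Parp16, the 3 that fell, were at -0.73, -0.57 and -1.32. The count that fell was 1 without control replicate 1 or 3 or inflamed replicate 1.

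Of 39 genes of the tricarboxylic acid cycle and pyruvate use, 12 (30.8%) fell and 4 rose, Acod1 among the latter; 7 rose with library totals as the only scaling. Pcx, pyruvate carboxylase, which beta cells hold at high level, stood at 254, 261 and 256 CPM in control and 46.8, 48 and 32.8 CPM in inflamed libraries (-2.60 ± 0.20, edgeR adjusted p = 3.61e-05). Pdk2, a pyruvate dehydrogenase kinase, fell by 1.93 ± 0.21 (edgeR adjusted p = 0.000199). Of 31 peroxisome genes, 10 (32.3%) fell and 3 rose; 6 fell without control replicate 3 or inflamed replicate 1. Pex7, a peroxisomal import receptor, and Hsd17b4, of fatty acid oxidation, fell by 1.77 ± 0.17 (edgeR adjusted p = 0.000111) and 1.25 ± 0.17 (edgeR adjusted p = 0.000669). In one-carbon and nucleotide metabolism 9 of 36 rose and 8 fell. Xdh, the xanthine oxidoreductase that makes uric acid, stood at 0.909, 1.68 and 1.11 and 16.8, 19.2 and 25.1 CPM (4.05 ± 0.32, edgeR adjusted p = 4e-05). Pnp, purine nucleoside phosphorylase, overlaps its copy Pnp2 and rose by 2.58 ± 0.26 (edgeR adjusted p = 0.000155), while Impdh1, of guanine nucleotide synthesis, fell by 1.73 ± 0.19 (edgeR adjusted p = 0.000231). Without control replicate 3, 4 fell. Complex I subunits encoded in the nucleus mostly did not pass, with 1 of 38 higher and 4 lower. The 1 that rose was Ndufa10 (0.67 ± 0.20, edgeR adjusted p = 0.0239), and the 4 that fell were Ndufs1, Ndufb2, Ndufs8 and Ndufa4, at -0.80, -0.91, -0.59 and -0.85. With the replicate block 5 rose, and with library totals as the only scaling 6. The calls of all 4 that fell were lost with that scaling (edgeR adjusted p = 0.0753 for Ndufs1 and 0.0589 for Ndufb2), and 1 member fell without control replicate 1 or 3.

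Of 36 mitochondrial import and quality genes, 10 (27.8%) rose against 21.3% of all genes, and 4 (11.1%) fell against 22%, with a median of 0.29. Tomm70a, an import receptor, rose by 1.10 ± 0.15 (edgeR adjusted p = 0.000668). Pink1, a kinase that marks damaged mitochondria, stood at 159, 148 and 146 CPM in control and 63.2, 48.7 and 47.4 CPM in inflamed libraries (-1.51 ± 0.17, edgeR adjusted p = 0.000245). Mief2, a fission factor, fell by 1.6 ± 0.28 (edgeR adjusted p = 0.00249). The count that rose was 4 without control replicate 2 or 3 or inflamed replicate 1, 6 without inflamed replicate 3, and 16 with library totals as the only scaling. Sphingolipid genes rose in 10 of 31 cases and fell in 5; 3 rose without control replicate 3 and 6 without control replicate 1 or 2. S1pr2, a receptor for sphingosine-1-phosphate, rose by 2.31 ± 0.29 (edgeR adjusted p = 0.000397), and Smpd3, a neutral sphingomyelinase, fell by 2.11 ± 0.25 (edgeR adjusted p = 0.000342).

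Sensors of foreign nucleic acid rose in 13 of 20 cases (65%), and 1 fell. Zbp1, a sensor of Z-form nucleic acid, stood at 0, 0.41 and 0 CPM in control and 176, 161 and 216 CPM in inflamed libraries (10.53 ± 0.72, edgeR adjusted p = 2.04e-05). Ddx58 (RIG-I), a sensor of viral RNA, stood at 9.6, 10.7 and 8.74 and 66.2, 75.3 and 67.7 CPM (2.85 ± 0.17, edgeR adjusted p = 1.12e-05). The gene that fell was Adarb1, an RNA editing enzyme, at -2.22 ± 0.25 (edgeR adjusted p = 0.000229). Among ubiquitin-like modifiers and their enzymes, 10 of 23 (43.5%) rose. Ube2l6, the conjugating enzyme of ISG15, stood at 9.05, 9.33 and 11.4 and 285, 269 and 291 CPM (4.82 ± 0.19, edgeR adjusted p = 3.72e-06), and Herc6, its ligase in mice, rose by 5.25 ± 0.22 (edgeR adjusted p = 3.8e-06). The 1 that fell was Ufm1, a modifier of endoplasmic reticulum proteins, at -1.12 ± 0.21 (edgeR adjusted p = 0.00352).

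Serpins rose in 15 of 20 cases (75%) with a median of 3.05. The family has 63 genes, and 22 of them had 0 counts in all 6 libraries. Serpina3g and Serpina3f passed the count filter only through the inflamed libraries, so the share and the median rest in part on such members. Beside Serpina3g, Serpina3f stood at 0.158, 0.273 and 0 CPM in control and 227, 273 and 261 CPM in inflamed libraries (10.85 ± 0.52, edgeR adjusted p = 4.68e-06). Of 13 cathepsins, 8 (61.5%) rose and 1, Ctsf, fell by 1.88 ± 0.19 (edgeR adjusted p = 0.000163); 5 rose without control replicate 3. Ctsb, a lysosomal cysteine protease whose gene overlaps Fdft1, stood at 506, 510.2 and 475 and 2618, 2874 and 3171 CPM (2.54 ± 0.22, edgeR adjusted p = 6.94e-05), and Ctss, the cathepsin of antigen-presenting cells, rose by 3.17 ± 0.25 (edgeR adjusted p = 4.49e-05). Integrins rose in 14 of 26 cases (53.8%) and fell in 2, Itga4 and Itga6; 8 or 9 rose without control replicate 1 or 3 or inflamed replicate 1. Itgb2, the leukocyte integrin chain, stood at 6.05, 7.1 and 3.52 and 74.9, 131 and 94.2 CPM (4.18 ± 0.33, edgeR adjusted p = 4.27e-05), and Itgav rose by 2.17 ± 0.23 (edgeR adjusted p = 0.00017). Of 15 receptors of the TNF superfamily, 8 rose and 1, Tnfrsf21, fell by 0.93 ± 0.23 (edgeR adjusted p = 0.0111). Tnfrsf10b, the TRAIL receptor of the mouse, stood at 2.1, 2.37 and 2.44 and 22.3, 24.8 and 18.8 CPM (3.25 ± 0.22, edgeR adjusted p = 2.07e-05). Tnfrsf11b, osteoprotegerin, stood at 0.83, 1.32 and 0.975 and 25.4, 22.5 and 14.1 CPM (4.31 ± 0.33, edgeR adjusted p = 3.64e-05).

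Macrophage markers moved with the groups of serpins, cathepsins, integrins and sensors. The marker list shares Ctss with the cathepsins and Itgam and Itgax with the integrins, so part of this agreement was fixed in advance. Of 19 tested, 17 rose, with a median of 2.10, and their summed level was 358.4 to 456.4 CPM in control and 1298 to 1506 CPM in inflamed libraries. Cd68, a lysosomal protein of macrophages, stood at 18.6, 16.1 and 11.5 CPM in control and 168, 206 and 247 CPM in inflamed libraries (3.75 ± 0.25, edgeR adjusted p = 1.82e-05). The 1 that fell was Cx3cr1, the fractalkine receptor, at -5.30 ± 1.22 (edgeR adjusted p = 0.0083). Their part in these results was not tested. Of 17 lymphocyte and neutrophil markers only 3 passed the count filter and 6 had 0 counts in all 6 libraries.

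**Figure D5:**
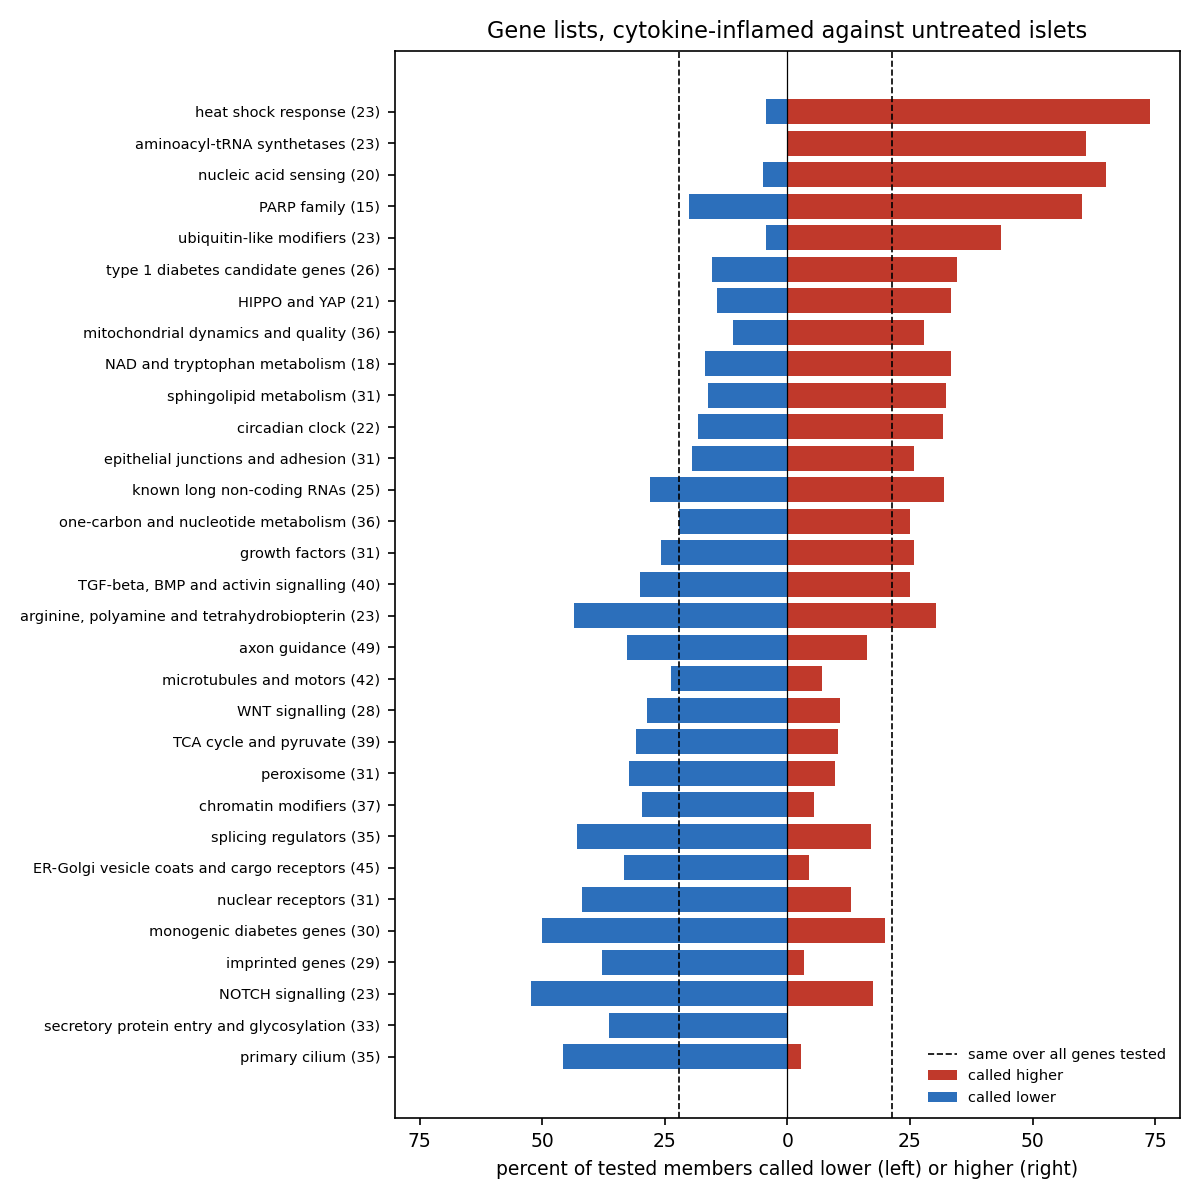
Percent of tested members called lower (blue, to the left) and higher (red, to the right) in each of the 31 gene lists, with the number tested in brackets; dashed lines mark the same percent over all 16516 genes tested, 21.3% higher and 22% lower. Heat shock genes reach 73.9% higher at the top, and genes of the primary cilium 45.7% lower at the bottom.

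Markers of the other endocrine cells fell: 7 of 10 alpha cell markers and 7 of 9 markers of delta, PP and epsilon cells. Fap, the 1 alpha cell marker that rose, is also known from stromal cells and had a log2 fold change of 3.25 ± 0.49 (edgeR adjusted p = 0.00111). Gcg stood at 6798, 13930 and 25680 CPM in control and 234, 58.3 and 408 CPM in inflamed libraries (-6.05 ± 0.85, edgeR adjusted p = 0.000736), and its control libraries differed from each other by over 3-fold. Sst, somatostatin, stood at 892, 2216 and 2310 and 239, 100.5 and 299 CPM (-3.08 ± 0.50, edgeR adjusted p = 0.0016); Sst (adjusted p = 0.0864) and Pyy (adjusted p = 0.0542) were not called in the fit of all 9 libraries, in which 4 delta, PP and epsilon markers fell. Among stellate cell and pericyte markers, Vim rose by 2.32 ± 0.42 (edgeR adjusted p = 0.00273) and 6 of 16 fell; 2 fell in the fit of all 9 libraries and 3 with no count filter. Acinar markers summed to 95.2 to 2016 CPM in control and 43.4 to 2783 CPM in inflamed libraries, and of 16 tested 1 was called, Bhlha15; 3 fell without inflamed replicate 3. Duct markers rose in 5 of 12 cases and fell in 3. Krt8, an epithelial keratin, stood at 155, 170.4 and 168 and 967, 492 and 821 CPM (2.21 ± 0.27, edgeR adjusted p = 0.000389). Without control replicate 3, 3 duct markers rose.

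Genes near variants linked to type 1 diabetes rose in 9 of 26 cases (34.6%) and fell in 4. Tnfaip3 (A20), an inhibitor of NF-kB, stood at 1.54, 3.69 and 2.26 CPM in control and 77.3, 78.5 and 57.5 CPM in inflamed libraries (4.84 ± 0.33, edgeR adjusted p = 2.22e-05), and Ifih1 (MDA5), a sensor of viral RNA, rose by 2.28 ± 0.19 (edgeR adjusted p = 5.48e-05). The fallen members were Dexi, Ikzf3, Ikzf4 and Sirpa, at -1.50, -0.83, -0.74 and -0.65, and 1 member fell without any 1 control library or inflamed replicate 1. Genes of monogenic diabetes fell in 15 of 30 cases (50%) and rose in 6, with a median of -0.97. Without control replicate 3, 3 rose. This list shares members with the beta cell markers, of which 21 of 22 fell. Pdx1, Slc2a2 and Nkx2-2, its 3 members with the smallest adjusted p, are on both lists. The part of the shared members in this result was not tested. Slc2a2, the glucose transporter of mouse beta cells, stood at 381, 488 and 307 and 9.06, 9.89 and 5.59 CPM (-5.59 ± 0.32, edgeR adjusted p = 9.41e-06). Slc19a2, the thiamine transporter mutated in a syndrome of diabetes and anaemia, rose from 9.29, 7.42 and 7.45 to 47.3, 57.8 and 40.9 CPM (2.59 ± 0.20, edgeR adjusted p = 3.87e-05) and was named after its value was seen.

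The other gene families examined moved in both directions, except that no protocadherin was called higher in the test as reported. Zinc finger (Zfp) genes rose in 54 of 344 cases and fell in 57, both below the share of all genes, and 23 rose and 34 fell without control replicate 3. Of 57 F-box genes of ubiquitin ligases, 7 (12.3%) rose and 16 (28.1%) fell, but 11 rose and 10 fell with library totals as the only scaling. Of 47 Usp deubiquitinases, 12 (25.5%) rose and 6 (12.8%) fell, with 6 higher without control replicate 3. Dual-specificity phosphatases, which act on MAP kinases, rose in 8 of 20 cases (40%) and fell in 5 (25%). Kinesins fell in 8 of 28 cases (28.6%) and rose in 3 (10.7%), with 3 lower without control replicate 3. Protocadherins, whose clustered genes share exons, fell in 10 of 32 cases (31.2%) and rose in 0. Those that fell ran from 5 without control replicate 3 to 16 without inflamed replicate 2. By limma-voom 21 fell, and by limma on FPKM values 17 or 18. Cytochromes P450 rose in 7 of 24 cases (29.2%) and fell in 5 (20.8%), and orphan receptors (Gpr) rose in 10 of 36 and fell in 10 (27.8% each). HIPPO and YAP genes rose in 7 of 21 cases (33.3%) and fell in 3 (14.3%), but 1 rose without control replicate 1 or 3.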

How the data were processed

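Read counts per gene, deposited as whole numbers on the GRCm39/mm39 build, were analysed for 3 control and 3 inflamed libraries; HTSeq and DESeq2 are named per the submitters' processing notes, without versions. RNA was extracted with a column kit and made into Illumina libraries per the labels' protocols. The authors' deposited FPKM values served only in alternatives. The control columns were assigned to the control samples as the one set left. Counts were tested with edgeR 4.0.16 (R 4.3.3; quasi-likelihood, robust, trimmed-mean factors, genes kept by filterByExpr with a smallest count of 10) with Benjamini-Hochberg adjustment at 0.05. Of 56748 genes, 28009 had a count and 16516 were tested. Shares were tested by exact permutation over libraries. Intervals of ratios cover counting error only.

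Genes named were the 12 largest rises and falls of at least 5 CPM, 10 of at least 20 CPM outside well-known genes, 4 long non-coding RNAs a direction, the 3 members of a list whose adjusted p was lowest, 6 abundant genes with small and precise differences, and 7 fixed genes. The largest rises and falls and the long non-coding RNAs were taken only from called genes whose groups did not overlap. The members and lists were chosen with earlier results of these data known. Alternatives were other scalings and filters, DESeq2 1.42.0, limma 3.58.1 (voom on counts, trend on FPKM), all 9 libraries, a replicate block, and leaving out each library. The procedure was tested on simulated data. Some genes that the rule names are not reported here.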

Additional observations from a re-analysis of the deposited data

How the results depend on the processing

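The number of higher genes was 3518 and ran from 2336 (without control replicate 3) to 3666 when 1 library was left out; lower genes ran from 2571 to 3838. Genes at least 2-fold higher ran from 1944 to 2528 and lower from 2237 to 2970; on log2(FPKM + 1) they were 1436 and 1751. With 1 library left out, the difference in genes detected at equal depth ran from -3172 to -978 (at least 1 count) and from 493 to 806 (at least 10 counts). With the bases before the start limited to 150, motif shares were 4.41% for kB, 1.6% for the interferon-stimulated response element, 4.17% for the gamma-activated site, 2.44% for the MAF half-site and 2.8% for TAATTA. The replicate numbers are shared by the groups in the labels. Correlations of deviations from the group mean were 0.0291, -0.0213 and 0.052 for same-numbered samples. For differently numbered samples they ran from -0.13 to 0.106. With so few samples a group, these values cannot tell whether same-numbered samples share a batch or an origin. With the replicate block 3356 genes were higher and 3580 lower. In counts of gene classes, which were added after seeing the data, without control replicate 3 the long non-coding RNAs lower were 224, pseudogenes higher 64 and ETS factors higher 6; pseudogenes higher were 69 without control replicate 2, and 553 long non-coding RNAs were lower on log2(FPKM + 1). Of 256 genes named by the rule, over 4863 pairs of gene and alternative, 4829 were counted as unchanged. For the 6 abundant genes with small differences, unchanged meant within 1 standard error of the reported fold change, whatever the sign. For all other genes it meant the same direction and the same side of the threshold. Of their pairs, 18 lost the call, 10 gained it and none reversed. The 6 abundant genes moved beyond their limit with library totals as the only scaling, where Ranbp3 changed sign to 0.1412. Depth limits genes under 1 CPM, where 286 of 2230 were called higher and 212 lower.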
